A study of Homo sapiens with 4 samples.

Results

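The snaR RNAs (small noncoding RNAs, gene symbols starting with SNAR-) were followed in breast cancer cells that carried a control hairpin or a hairpin against the m6A reader YTHDF3. The members are all probe sets that the platform annotation maps to a SNAR- symbol. There were 14 such probe sets of 53617 in the table, and they carried 8 gene symbols of the 14884 named on the array: SNAR-B1, SNAR-C1, SNAR-D, SNAR-F, SNAR-G1, SNAR-G2, SNAR-H and SNAR-I. Within the series this family was selected on its differences between the same control and knockdown arrays, so those differences are given as a description. Where a fit over all genes also covered these loci its counts are printed, but they cannot test the family and nothing is read from them.

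MDA-MB-231Br is a derivative of the human breast cancer line MDA-MB-231, and the sample titles name the parent line while the cell line field names the derivative. The labels give 2 groups, cells with shControl lentivirus (2 arrays) and cells with shYTHDF3 lentivirus (2 arrays), and both groups were selected with puromycin. The labels used here name neither the hairpin sequences nor how many were used. They also do not say whether both arrays of a group stand for separate cultures, and a p-value then measures only the spread between these arrays, which may be technical. No probe set was named YTHDF3, YTHDF1 or YTHDF2, so the level of the targeted transcript was not analysed here and the labels have no check from it.

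The snaR genes are short, and RNA polymerase III transcribes them. They belong to a primate family that arose from an Alu-like ancestor, and they occur as clusters of near-identical copies. Their RNA folds into a largely double-stranded hairpin, and part of it is found with ribosomes. Among normal tissues snaR is known mainly from testis and from parts of the brain, and it is also found in many immortalised and cancer lines.

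The RefSeq gene table (GRCh38.p14) held 28 snaR genes with lengths of 119 to 128 bases, 26 of them on chromosome 19, 1 on chromosome 2 (SNAR-H) and 1 on chromosome 3 (SNAR-I). Of the 14 genes of the A subfamily 0 were named on the array, against 1 of 2 in B, 1 of 5 in C, 2 of 2 in G and the single genes of D, F, H and I. The single gene of E was not among the named ones. SNAR-G1 and SNAR-G2 lie just upstream of the chorionic gonadotropin beta genes CGB1 and CGB2, so their sequences could be read from the RefSeq promoter windows of those genes. They are shown because they let a reader see what kind of RNA these probe sets measure and how far 2 copies can differ. Both are printed on the strand opposite to the CGB gene, the one on which the sequence ends in a run of T, with the letters GTTCGA and that final run in capitals.

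SNAR-G2: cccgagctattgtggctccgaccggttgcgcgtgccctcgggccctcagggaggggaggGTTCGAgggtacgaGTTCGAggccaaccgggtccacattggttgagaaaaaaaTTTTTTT
SNAR-G1: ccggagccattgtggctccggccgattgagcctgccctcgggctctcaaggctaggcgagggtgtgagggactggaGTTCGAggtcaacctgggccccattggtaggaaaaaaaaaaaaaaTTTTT

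SNAR-G2 takes up bases 30 to 148 of the CGB2 window (GRCh38.p14, chr19:49031640-49031939, plus strand) and all 119 of its bases are shown. SNAR-G1 takes up bases 1 to 126 of the CGB1 window (GRCh38.p14, chr19:49036846-49037145, minus strand), which leaves out the last 2 of its 128 bases. Both lie before the annotated start of the CGB gene, with 102 bases (SNAR-G2) and 124 bases (SNAR-G1) in between. The G and C content was 58.8% in SNAR-G2 and 55.6% in SNAR-G1. In a global alignment 99 of 127 columns were identical (78%), with 9 gap columns. The letters GTTCGA are the core of the B box, an internal promoter element of genes of this kind. SNAR-G2 held them at positions 60 and 74 and SNAR-G1 at position 77, counted from 1 at the printed 5′ end, and neither held them on the other strand. The longer form GTTCGANNC, which overlaps that core, was found at position 74 of SNAR-G2 and nowhere in SNAR-G1. Among all 35116 promoter windows of 300 bases, 2.3% held GTTCGA on either strand, 0.829% held GTTCGANNC and 39.2% held TTTTT, the kind of T run at which RNA polymerase III stops. These matches describe the letters and do not show that a factor binds there.

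Several probe sets repeated the same measurement. The 5 probe sets of SNAR-C1 held 2 sets of values, one shared by 3 probe sets and the other by 2, with all 4 values equal as deposited. Of the 3 probe sets of SNAR-B1, 2 were equal to each other. The remaining SNAR-B1 probe set was equal to 2 unnamed probe sets. The 14 probe sets thus gave 10 distinct profiles, and each profile was counted once below. Of all probe sets on the array, 2128 (3.97%) shared all 4 values with another. Profiles (a) and (b) are told apart here only for SNAR-B1 and SNAR-C1. SNAR-B1 (a) is the profile also held by the unnamed probe sets and SNAR-B1 (b) the one held by 2 probe sets. SNAR-C1 (a) is held by 3 and SNAR-C1 (b) by 2. These 2 SNAR-C1 profiles stood at different levels, but with each centred on its own mean they differed by at most 0.02 on any array. They are nearly the same pattern and still count as 2 of the 10 profiles below. Because the clustered copies are near-identical, the symbol of such a copy need not mean that the signal came from it alone. SNAR-C1 (b) and SNAR-B1 (b) differed by at most 0.23 on any array. Not all copies are that close, as SNAR-G1 and SNAR-G2 were 78% identical in the alignment above. The sequences of the array probes were not available here.

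The values are log2 expression as deposited, and levels of different probe sets cannot be set against each other. All 10 profiles had a higher mean in the 2 knockdown arrays than in the 2 control arrays, as did 51% of all probe sets above the filter on low values (a mean of at least 2.54). In 9 of them both knockdown arrays lay above both control arrays, where 21.5% of those 37532 probe sets did so. The profiles were proposed with this contrast known, so nothing is read from that count. Their differences ran from 0.29 to 1.16 on the log2 scale, with a median of 0.58, beside a median of 0.00 over all 12755 genes tested. The difference was at least 0.5 in 6 of 10 profiles, beside 4.15% of probe sets, and SNAR-C1 (a) was only just past that step at 0.504. The choice of loci used these differences, so nothing is read from this count either. All 14 probe sets passed the filter.

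**Figure D1:**
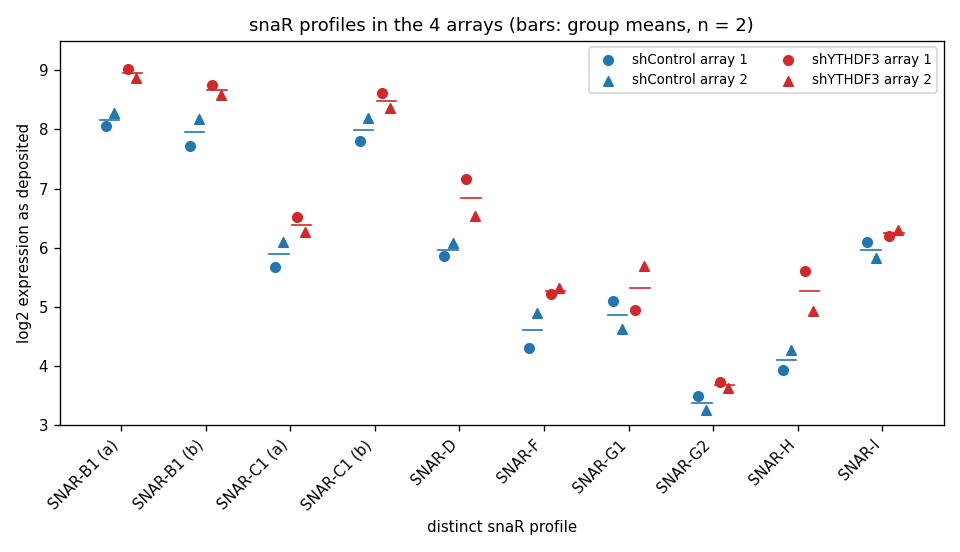
Log2 expression as deposited (y axis) of the 10 distinct snaR profiles (x axis) in each of the 4 arrays, with bars at the group means (n = 2). The red knockdown points lie above both blue control points in every profile but SNAR-G1, where knockdown array 1 at 4.95 lies below control array 1 at 5.09.

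The B subfamily lies at one end of a cluster of snaR-A copies of chromosome 19. SNAR-B1 (a) stood at 8.05 and 8.28 in the control arrays and at 9.02 and 8.88 in the knockdown arrays. The groups did not overlap and lay further apart than the arrays of either group. The difference was 0.78 (standard error, SE, 0.15 from the limma fit over all probe sets above the filter), or 1.72-fold, between means of 8.17 ± 0.16 and 8.95 ± 0.10 (SD, n = 2). SNAR-B1 (b) stood at 7.72 and 8.18 in control and at 8.76 and 8.59 in knockdown arrays, a difference of 0.72 (SE 0.20). Here control array 1 was the low one, 0.46 below control array 2, and without it the difference was 0.49. That distance between the control arrays was larger than the one between the nearest arrays of the groups.

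SNAR-C1 belongs to a cluster in which C and A copies are interspersed. SNAR-C1 (a) stood at 5.68 and 6.10 in control and at 6.52 and 6.27 in knockdown arrays. SNAR-C1 (b) stood at 7.80 and 8.19 in control and at 8.62 and 8.36 in knockdown arrays. The differences were nearly equal, 0.50 (SE 0.20) and 0.49 (SE 0.19), or 1.42-fold and 1.41-fold. The nearest arrays of the groups, control 2 and knockdown 2, were separated by less than the arrays within a group in both profiles. Without control array 1 the differences were 0.30 in both, and without control array 2 they were 0.71 and 0.68.

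SNAR-D, next to the B copies, stood at 5.85 and 6.08 in control and at 7.17 and 6.53 in knockdown arrays. Knockdown array 1 was the high one, and the knockdown arrays were further apart than the nearest arrays of the groups. The difference was 0.88 (SE 0.25), or 1.84-fold, and 0.57 without knockdown array 1. SNAR-F, a copy on chromosome 19 outside the clusters, stood at 4.32 and 4.91 in control and at 5.22 and 5.32 in knockdown arrays. The control arrays were further apart than the nearest arrays of the groups. The difference was 0.66 (SE 0.23), or 1.58-fold, and 0.36 without control array 1.

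SNAR-H, the copy on chromosome 2, showed the widest gap between group means of the 10 profiles. It stood at 3.94 and 4.28 in control and at 5.61 and 4.93 in knockdown arrays. The groups did not overlap, and knockdown array 1 was the high one. The knockdown arrays were slightly further apart than the nearest arrays of the groups. The means were 4.11 ± 0.24 and 5.27 ± 0.48 (SD, n = 2), a difference of 1.16 (SE 0.27), or 2.23-fold, and 0.82 without knockdown array 1. SNAR-I, the copy on chromosome 3, had the narrowest gap, with 6.09 and 5.83 in control and 6.19 and 6.31 in knockdown arrays. Its difference of 0.29 (SE 0.15) was 1.22-fold, and 0.16 without control array 2. Its control arrays were further apart than the nearest arrays of the groups.

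Of the G copies, whose sequences are given above, SNAR-G2 had a narrow gap and SNAR-G1 one close to that of SNAR-C1. SNAR-G2 stood at 3.50 and 3.26 in control and at 3.74 and 3.63 in knockdown arrays, near the array medians of 3.20 to 3.22, where weak signals are compressed. Its difference was 0.30 (SE 0.15), or 1.23-fold, and 0.18 without control array 2. Again the control arrays were further apart than the nearest arrays of the groups. SNAR-G1 stood at 5.09 and 4.64 in control and at 4.95 and 5.70 in knockdown arrays. Its groups overlapped, and the difference of 0.46 (SE 0.31) was 0.08 without knockdown array 2, 0.23 without control array 2 and 0.84 without knockdown array 1.

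The profiles were not 10 independent measurements. Between the control arrays, a comparison that the choice of loci did not use, array 2 was above array 1 in 7 of 10 profiles, with a median difference of 0.28 (range -0.46 to 0.59), beside 49% of all genes tested. Between the knockdown arrays array 2 was above array 1 in 3 of 10, with a median of -0.15 (range -0.68 to 0.75), beside 47% of all genes. The B, C, D and H profiles went upward between the control arrays and downward between the knockdown arrays, while SNAR-G1 and SNAR-I went the other way in both. SNAR-F was higher in array 2 of both groups and SNAR-G2 lower in array 2 of both. The median absolute difference between the control arrays was 0.36 for snaR profiles and 0.15 for all genes, and between the knockdown arrays 0.21 and 0.15. Taking 1 array of each group at a time, the median of the 10 profiles was 0.87 for knockdown 1 against control 1, 0.45 for knockdown 1 against control 2, 0.64 for knockdown 2 against control 1 and 0.43 for knockdown 2 against control 2. SNAR-G1, in the first of these pairs, gave the one negative value of any profile in any pair (-0.14).

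**Figure D2:**
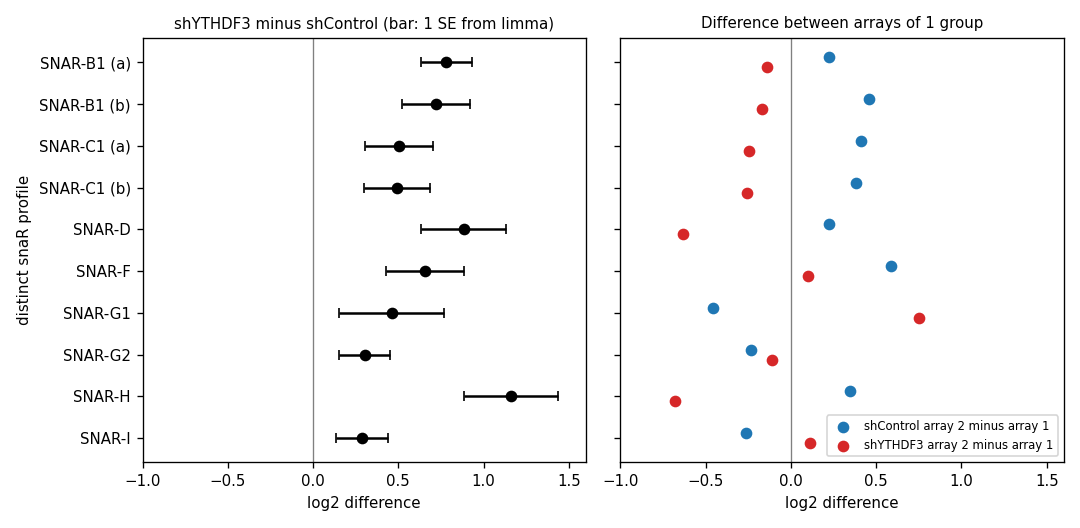
Log2 differences (x axis) of the 10 distinct snaR profiles (y axis) between the groups (left, with 1 SE from limma) and between the 2 arrays of each group (right). All 10 group differences lie above 0, from 0.29 to 1.16, while the differences within groups reach -0.68 and 0.75.

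The limma fit over 12755 genes, with 1 probe set per gene, called 0 of the 8 snaR genes at a Benjamini-Hochberg adjusted p under 0.05, where it called 0.753% of all genes (0.0862% higher and 0.666% lower in knockdown arrays). At an unadjusted p under 0.05 it had 5 of the 8, beside 14.7% of all genes. When the variance prior followed intensity it called 3 of the 8, beside 2.94%. The loci were proposed with this contrast known, so nothing is read from these counts.

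Other transcripts of RNA polymerase III were taken as a list of 21 symbols, of which 6 were on the array by name and 5 were tested. VTRNA1-3, a vault RNA, rose from 5.40 and 5.10 in control to 6.19 and 6.60 in knockdown arrays, a difference of 1.14 (SE 0.18) with an adjusted p of 0.046 from limma over all genes. That call was lost without any 1 of the 4 arrays (limma's adjusted p then ran from 0.086 to 0.36) and with no filter on low values. The other 4 did not pass. RMRP, the RNA of the mitochondrial RNA processing ribonuclease, differed by 0.15 (95% interval -0.16 to 0.46), VTRNA1-1 by 0.27 (-0.22 to 0.75) and VTRNA2-1 by 0.20 (-0.41 to 0.81). RPPH1, the RNA of ribonuclease P, differed by -0.32 (-0.73 to 0.09). VTRNA1-2 was under the filter, with values of 2.18 to 2.66. The list's median was 0.20, beside 0.00 for all genes tested.

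Genes that make or bind such RNAs were taken as further lists. Of 39 listed genes of the RNA polymerase III machinery 12 were tested and 0 passed limma's test, beside 0.753% of all genes, a share at which lists of this size would hold few or no calls. At an unadjusted p under 0.05 it had 0, beside 14.7% of all genes. Their median difference was 0.09, with a range of -0.24 to 0.28. The members of smallest p were POLR3C, a polymerase III subunit, at -0.24 (95% interval -0.54 to 0.05), POLR2F, a subunit shared between polymerases, at 0.28 (-0.10 to 0.66), CRCP, another polymerase III subunit, at 0.23 (-0.09 to 0.54), and POLR3G at 0.18 (-0.14 to 0.49). MAF1, the repressor of polymerase III, was not among these 4. It is named after its values were seen, with a difference of 0.17 (-0.15 to 0.49).

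Of 17 listed double-stranded RNA binding proteins and their partners 8 were tested and 0 passed, beside 0.753% of all genes, with 2 higher and 0 lower at an unadjusted p under 0.05, beside 14.7% in either direction. Their median difference was 0.18. DGCR8, the partner of Drosha in microRNA processing, stood at 5.17 and 5.24 in control and 5.93 and 5.67 in knockdown arrays, a difference of 0.59 (95% interval 0.26 to 0.93). Limma's adjusted p for it was 0.13. DHX9, an RNA helicase, differed by 0.37 (0.06 to 0.68), ZFR, a zinc finger RNA binding protein, by 0.23 (-0.06 to 0.53), and EIF2AK2, the double-stranded RNA sensor PKR, by 0.21 (-0.15 to 0.57).

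A list of growth and translation genes linked to snaR or to double-stranded RNA binding proteins had 6 of 12 members tested, with 1 lower and 0 higher, beside 0.666% and 0.0862% of all genes. VEGFA, a growth factor for blood vessels, fell by 1.06 on the log2 scale (SE 0.13, adjusted p = 0.018 from limma), a call lost without any 1 of the 4 arrays, at 0.097 to 0.29. The transcription factor MYC differed by -0.63 (95% interval -0.97 to -0.29), cyclin D1 (CCND1) by 0.49 (0.17 to 0.80) and the kinase CDK6 by 0.22 (-0.10 to 0.54), and none of these passed over all genes. The list's median was 0.03. At limma's unadjusted p under 0.05 it had 2 lower and 1 higher of the 6, beside 14.7% of all genes in either direction. The list was chosen with earlier results of these data known, so nothing is read from that count.

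**Figure D3:**
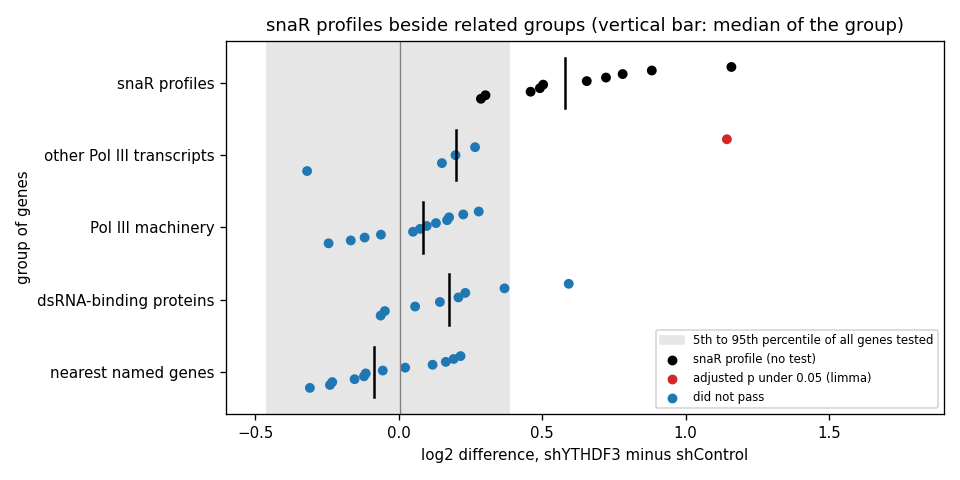
Log2 difference between knockdown and control group means (x axis) for the 10 snaR profiles and, below them, the tested genes of 3 related lists and the nearest named genes (rows on the y axis), with each row's median as a bar. The grey band spans the 5th to the 95th percentile of all genes tested, -0.46 to 0.38, and VTRNA1-3 at 1.14 is the one point in the lists past limma's threshold.

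The nearest tested genes to the snaR loci on the chromosomes did not move in a common direction. The nearest tested named gene on each side of the 8 loci gave 12 different genes. Of these 12 genes 0 passed limma's test, beside 0.753% of all genes. At an unadjusted p under 0.05 there were 0 of the 12, beside 14.7% of all genes. The median difference of these neighbours was -0.08, with a range of -0.31 (UTS2B, beside SNAR-I) to 0.22 (CRX, beside SNAR-C1). In 2 of the 12 both knockdown arrays were above both control arrays and in 3 both were below, beside 22.6% and 22.8% of all genes. LHB and NTF4 are the nearest tested genes to the G copies, with differences of -0.15 (95% interval -0.93 to 0.63) and -0.24 (-0.57 to 0.09). CGB1 and CGB2 lie nearer to the G copies but were not among the genes tested. ZNF473 and IZUMO2 flank the B and D copies, at -0.23 (-0.56 to 0.10) and 0.19 (-0.13 to 0.51). SNAR-H lies between LRRTM4 at -0.12 and REG3G at 0.12. The others were BSPH1 beside SNAR-C1 at 0.02, GMNC beside SNAR-I at -0.06, and LRRC4B and SYT3 beside SNAR-F at -0.11 and 0.16. Many of these neighbours stood near or below the array medians of 3.20 to 3.22, where weak signals are compressed. Among them were CRX (2.43 to 3.02), BSPH1 (2.63 to 2.77), IZUMO2 (2.49 to 2.82) and LRRTM4 (2.55 to 2.87). ZNF473 (6.45 to 6.86) and LHB (4.27 to 5.42) stood higher. A small difference at a weak signal cannot show that a gene was unchanged, so nothing is read from it. In a wider list of 61 genes around the chorionic gonadotropin beta cluster 33 were tested and 0 passed, with a median of -0.06. Without adjustment 4 were lower and 2 higher at p under 0.05, a share near the 14.7% of all genes. Its members of smallest p were ZNF114 at 0.69, RRAS at -0.82, DBP at -0.71 and TMEM143 at -0.54.

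The 5 named genes whose pattern over the 4 arrays was most like the mean snaR profile were TOMM40, HOXC9, MIR4668, MIR181D and ENDOD1. Likeness was the Euclidean distance between profiles, each centred on its own mean, and it ran from 0.046 for TOMM40 to 0.072 for ENDOD1. The snaR profiles themselves lay between 0.16 (SNAR-B1 (a)) and 0.78 (SNAR-G1) from their mean, and 66 of 12639 other genes lay nearer to it than the nearest of them. TOMM40, the channel of the outer mitochondrial membrane translocase, stood at 8.86 and 9.02 in control and at 9.62 and 9.55 in knockdown arrays. With 4 arrays such likeness is a description of these arrays only.

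Classes of RNA were set beside these values from the RefSeq biotypes of the genes tested. Among 564 microRNA genes the median difference was -0.05 and both knockdown arrays were above both control arrays in 15.1%. Among 1010 long noncoding RNA genes these figures were -0.01 and 17.9%, and among 10809 protein-coding genes 0.01 and 23.6%. The median absolute difference between the control arrays was 0.24 for microRNA genes, 0.14 for protein-coding genes and 0.62 for the 3 vault RNA genes tested, beside 0.36 for the snaR profiles.

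The cells were checked against markers. The mesenchymal genes VIM and CD44 stood at 9.83 to 9.90 and 8.06 to 8.30. Of 7 tested markers of the MDA-MB-231 type 0 passed limma's test, and their median difference was -0.16. In 5 of the 7 both knockdown arrays lay below both control arrays, beside 22.8% of all genes. In the other 2, VIM and CD44, both lay above, beside 22.6%. The summed level was 70.3 to 70.4 in control and 69.1 to 69.4 in knockdown arrays. The members of smallest p were ZEB1 (-0.47), FOSL1 (-0.39), CD44 (0.17) and AXL (-0.18), and VIM was not among them. Of 13 luminal and epithelial markers 1 was lower, XBP1 at -0.99 (adjusted p = 0.032 from limma, and 0.14 to 0.36 without any 1 array), and KRT18, ESRP1 and KRT19 had differences of 0.50, -0.27 and -0.40. Their summed level was 60.9 to 61.3 in control and 60.4 to 60.5 in knockdown arrays. Their values differed widely between probe sets, from 2.78 to 2.94 for ESR1 and 2.57 to 2.76 for PGR to 6.63 to 6.77 for EPCAM and 8.26 to 8.98 for KRT18, and no identity is read from levels of different probe sets. Leukocyte markers had 2 tested members and 0 calls (CD14 at -0.20, CD68 at -0.17). The values of CD14 were 2.57 to 2.96, while those of CD68 were high, at 10.40 to 10.66. The summed levels of this list, with LYZ included, were 15.6 to 15.9 in control and 15.5 to 15.8 in knockdown arrays. Fibroblast and endothelial markers had 2 tested members and 0 calls (VWF at -0.34, PECAM1 at -0.13). The summed levels of this list, with DCN and LUM included, were 9.58 to 10.3 in control and 9.28 to 9.94 in knockdown arrays. LYZ, DCN and LUM were under the filter. Before adjustment, p was under 0.05 for at most 2 lower and 1 higher members of any of these 4 lists, beside 14.7% of all genes in either direction, and 0.753% of all genes passed after adjustment. The part of these shifts in the snaR values was not tested.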

How the data were processed

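Expression was measured on 4 Affymetrix arrays, 2 per group, with groups and numbers from the sample titles. The deposited values were log2 expression per probe set, made with RMA (background correction, normalization between arrays and probe summary) per the submitters' processing notes. Not given in the sources used here were RMA's version and settings, the genome build and detection calls. The number of arrays limits the precision.

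Probe sets were named from the platform annotation, and all 14 snaR probe sets matched RefSeq by Entrez identifier with the same symbol. The probe set of highest mean stood for each gene, and 12755 genes with a mean of at least 2.54 (the 30th percentile over probe sets) were tested. The test was 2-sided, by lmFit and eBayes of limma 3.58.1 (R 4.3.3), with 2 residual and 5.30 prior degrees of freedom. P-values were adjusted by Benjamini-Hochberg over these genes, 0.05 was the threshold, and the code was tested on simulated data. The smallest 2-sided p that permuting these arrays allows is 0.333. Standard errors of snaR probe sets came from the same fit over all 37532 probe sets above that value. Pairing by replicate number was checked and not used: deviations of same-numbered arrays correlated at 0.043 over genes, and nothing in the labels ties the numbers to a day or batch.

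The members and gene lists were chosen with earlier results of these data known. Named genes were all SNAR- genes, YTHDF1 to YTHDF3, up to 4 tested members of smallest p per list, every named polymerase III transcript, the nearest tested named genes and the 5 of most like pattern. TRNAU1AP, a protein gene caught by the tRNA prefix, was left out of the transcript list. Some genes that the rule covers are not reported here.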

Additional observations from a re-analysis of the deposited data

How the results depend on the processing

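All 10 snaR profiles kept a positive difference under the 3 other normalizations tried and without any 1 array. For 9 of them the sign without 1 array was fixed, because both knockdown arrays lay above both control arrays. The family was chosen on this contrast, so nothing is read from the kept sign. Over the 14 probe sets the median difference was 0.50, and without 1 array it ran from 0.42 to 0.71. Counting profiles whose levels lay within 0.5 on every array as one left 7 instead of 10. This joined SNAR-C1 (a) with SNAR-I, at most 0.41 apart, and kept SNAR-C1 (a) and SNAR-C1 (b) separate, at up to 2.12 apart. The 7 is thus a count by level and not a count of repeated measurements. The count of genes called by limma was 96 as reported, 167 with a filter at the 50th percentile, 375 with an intensity trend, 250 at an adjusted p under 0.1, 19 when all probe sets were tested together and 0 to 36 without 1 array. It was 0 without shControl replicate 1, 0 without shControl replicate 2, and 36 without either knockdown array, with the lone array assumed to vary like the other group. With the replicate number as a block it was 11, but the arrays share only a number. Of the 5 gene lists 2 genes were called as reported, 1 with no filter, 6 with an intensity trend, 0 with all probe sets, 0 with the replicate block and 0 without any 1 array. With the block 0 of 8 snaR genes were called, beside 11 of 12755 genes. With a filter at the 50th percentile 1 of 8 was called, beside 167 of 10342 genes. At an adjusted p under 0.1 it was 2 of 8, beside 250 of 12755. The loci were proposed with this contrast known, so nothing is read from these snaR counts. The causes of the shifts between settings were not tested. The run with all probe sets held more tests, and the runs without 1 array held fewer arrays.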
